A study of Mus musculus with 6 samples.

Results

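Imprinted genes are transcribed mainly or only from the copy inherited from one parent, because a methylation mark laid down in the egg or sperm is kept at a nearby control region. Many of them set growth before birth: genes read from the father's copy tend to promote it and genes read from the mother's copy tend to restrain it. In adipose tissue several are known as marks of progenitors or of fat cells that are expanding. Described here are 10 such genes of the 56980 listed in the count matrices, picked by name: the long noncoding RNAs Meg3, Rian and H19, the ligands Igf2 and Dlk1, the growth inhibitors Cdkn1c and Grb10, and the paternally expressed genes Peg3, Mest and Nnat. They were picked with earlier results of these same counts known, so their values are a description and carry no p-values. C57BL/6J is an inbred strain, and the parental copy a transcript came from cannot be read from these counts.

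Single-nucleus RNA sequencing was applied to white adipose tissue of female C57BL/6J mice. The 6 libraries formed 3 groups of 2: young subcutaneous fat (SAT, 2 months), old SAT (24 months) and old visceral fat (VAT, also 24 months), with no treatment and no altered gene in any group. The labels give 24 months for the older mice where the design text gives 26 months, and the labels' age is used here. The study's text puts both depots of an age in 2 mice, so the old SAT and VAT libraries may share animals, but which belong together is not given and no pairing was used.

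The libraries held 8061862 to 16226690 UMIs (unique molecular identifiers, 1 for each captured transcript) and 2490 to 5776 nuclei that passed the filters, 27074 in all, with a median of 1380 to 1878 UMIs per nucleus. Libraries shared at most 0.769% of the smaller library's barcodes. The labels call every library adipocytes, whereas nuclei with adipocyte markers made up 3.16% to 64.6% of a library. Clusters were named from marker lists, and 9 of 9 markers of adipocytes and 9 of 9 of fibro-adipogenic progenitors (FAPs, the fibroblast-like cells that can become fat cells) were over 2-fold higher in the nuclei so named than in all others. VAT replicate 2 stood apart: it held 432 nuclei with ovarian steroidogenic markers, 537 with oviduct secretory markers, 158 with multiciliated markers and 1395 with mesothelial markers, and only 160 adipocytes. The ovarian and oviduct names are used here for that library alone. Its FAPs also had a lower summed level of the 9 FAP markers, 4880 CPM (a gene's UMIs per 1000000 UMIs of the nuclei summed) against 19000 to 36180 CPM in the other 5 libraries, with 2483 CPM of mesothelial and 779 CPM of ovarian markers against at most 281.2 and 69.58 CPM. Without Harmony, the step that evens out libraries before clustering, 33 of its nuclei were named FAPs instead of 326. In VAT replicate 1 they numbered 606 instead of 681. Log2 fold changes between depots are therefore given also without VAT replicate 2 where they are described.

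The promoters of the 4 members that carry most of the values below are shown because imprinting acts on such sequence: an imprint is methylation at CG pairs, and ZFP57, a zinc finger protein that keeps imprints, binds the methylated hexamer TGCCGC. The windows run from 250 bases before to 50 bases after a RefSeq transcript start (annotated on GRCm38.p6, each found once by exact match in GRCm39, whose coordinates are given), 5′ to 3′ on the gene's strand. Capitals mark TGCCGC or its reverse complement GCGGCA.
Meg3, chr12:109506629-109506928, plus strand: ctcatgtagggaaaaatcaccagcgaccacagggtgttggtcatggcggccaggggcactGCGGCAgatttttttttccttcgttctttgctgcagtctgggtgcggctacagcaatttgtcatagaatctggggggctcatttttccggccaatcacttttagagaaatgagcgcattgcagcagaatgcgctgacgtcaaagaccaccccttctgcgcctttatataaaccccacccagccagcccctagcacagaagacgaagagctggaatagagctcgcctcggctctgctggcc
Mest, chr6:30737799-30738098, plus strand: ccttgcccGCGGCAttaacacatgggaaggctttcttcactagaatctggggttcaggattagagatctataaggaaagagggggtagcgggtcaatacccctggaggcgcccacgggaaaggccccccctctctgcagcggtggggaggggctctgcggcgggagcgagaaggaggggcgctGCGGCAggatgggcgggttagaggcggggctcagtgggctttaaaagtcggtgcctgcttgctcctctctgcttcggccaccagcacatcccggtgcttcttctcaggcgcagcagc
Nnat, chr2:157401748-157402047, plus strand: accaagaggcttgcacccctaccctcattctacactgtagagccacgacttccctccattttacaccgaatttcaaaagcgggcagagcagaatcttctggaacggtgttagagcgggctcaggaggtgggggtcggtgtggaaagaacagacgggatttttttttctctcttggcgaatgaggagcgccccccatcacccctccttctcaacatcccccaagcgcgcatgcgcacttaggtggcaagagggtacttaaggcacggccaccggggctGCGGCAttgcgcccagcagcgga
Peg3, chr7:6733369-6733668, minus strand: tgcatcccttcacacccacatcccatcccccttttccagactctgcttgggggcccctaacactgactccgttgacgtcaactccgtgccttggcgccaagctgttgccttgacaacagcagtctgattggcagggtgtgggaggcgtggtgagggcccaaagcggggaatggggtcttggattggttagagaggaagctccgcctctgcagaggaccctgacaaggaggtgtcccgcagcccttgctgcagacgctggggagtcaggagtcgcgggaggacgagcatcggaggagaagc

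The hexamer, searched on both strands, was found 2 times in the Mest window, 1 time each in the Meg3 and Nnat windows and not in the Peg3 window, and 11.6% of the 32851 RefSeq promoters of this length held it. Mest and Nnat had 17 CG pairs each and Meg3 and Peg3 13 each, where the median promoter had 7. Meg3 and Mest have further annotated starts, and a window with the most CG pairs is shown for each. Another Meg3 window held 1 CG pair, another Mest window held 8, and neither held the hexamer. The sequence CCAAT, also searched on both strands, was present 2 times in the Peg3 window and 1 time in the Meg3 window, and in 37.4% of all promoters. Methylation was not measured in this series, and these matches describe the letters only.

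Meg3 is a maternally expressed long noncoding RNA of the Dlk1-Meg3 cluster (GENCODE M39 on GRCm39, chr12:109506877-109538165, plus strand). Its level in FAPs was 1746 and 1507 CPM in the SAT libraries at 2 months, 197.1 and 150.5 CPM in SAT at 24 months, and 786.4 and 290.4 CPM in VAT at 24 months. All 3 groups kept apart, in the order young SAT, old VAT, old SAT. The lower VAT value is that of replicate 2, whose FAPs were fewer without Harmony. The mean of old SAT (174 ± 33 CPM, SD, n = 2) was 9.36-fold below that of young SAT (1630 ± 169 CPM), a log2 fold change of -3.23 ± 0.64 (SE). It was negative in 16 of 16 alternative fits, which use the same counts again. With 1 library at a time left out it ran from -3.38 to -3.05. These sums rest on 642 and 558 Meg3 UMIs in young SAT but on only 17 and 63 in old SAT, from 58 and 234 FAP nuclei.

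**Figure D1:**
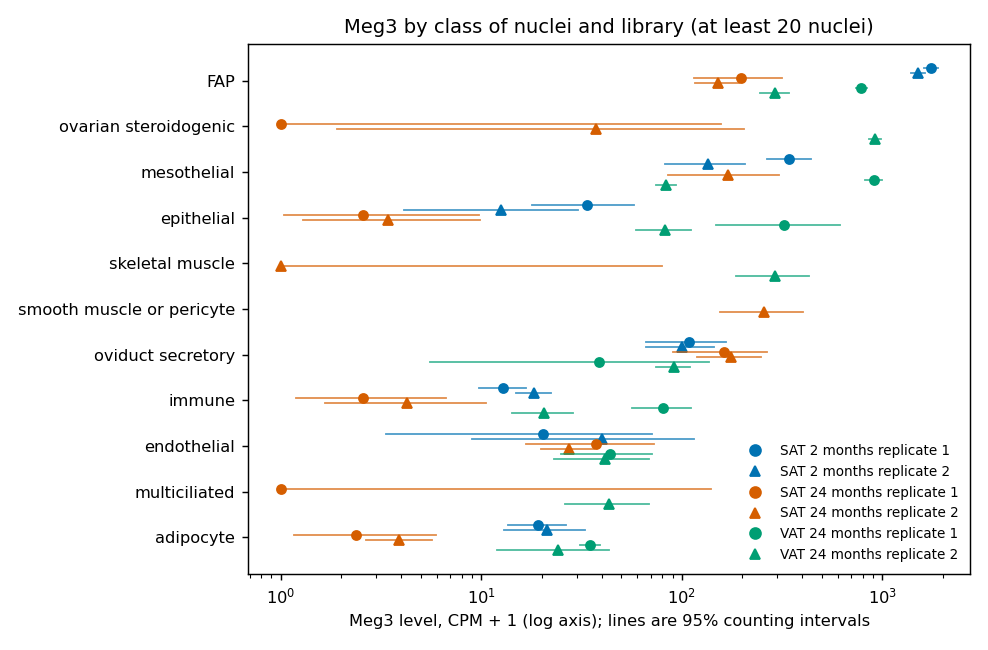
Meg3 level (CPM + 1, log axis) in each class of nuclei with at least 20 nuclei in a library, with 95% exact counting intervals. Young SAT FAPs reach 1746 and 1507 CPM, while adipocytes lie between 1.378 and 33.95 CPM, and the ovarian steroidogenic point of VAT replicate 2 is at 919.7 CPM, other libraries in the ovarian and oviduct rows being nuclei of the same clusters.

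The same order was seen nucleus by nucleus. After each nucleus was thinned to 1000 UMIs, 66.7% (95% exact interval 59.6% to 73.2%) and 57.4% of FAPs held a Meg3 UMI in young SAT, against 10.3% and 7.69% in old SAT and 36.0% and 14.4% in old VAT. Without thinning the shares were 73.8% and 70.5%, 10.3% and 9.40%, and 46.1% and 18.1%. Immune nuclei were taken here as a class with little of the gene, and whether their UMIs are their own was not tested. Of them, 0.128% to 6.59% held a UMI after thinning. Their median depth was 1257 to 1450 UMIs, against 1299 to 1634 in FAPs. Every FAP share was above the immune share of its own library.

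The FAP values did not rest on a single kind of FAP, among the sub-clusters described here. Sub-clusters led by Gas6 and Cilp (261 nuclei) and by C7 and Fmo2 (157 nuclei) are not described. In the sub-cluster with the markers of Dpp4 progenitors, the least committed FAPs, led by Pi16 and Sema3c, Meg3 was at 2553 and 1608 CPM in young SAT, 632.2 CPM in old SAT replicate 2, and 1663 and 385.1 CPM in old VAT. In the largest sub-cluster, led by Frmd5 and left unnamed, Meg3 was at 1674 and 2087 CPM in young SAT, 63.46 and 94.93 CPM in old SAT, and 317.2 and 73.03 CPM in old VAT. In the sub-cluster with markers of Col15a1 preadipocytes Meg3 was at 1338 CPM in young SAT replicate 1, 110.8 CPM in old SAT replicate 2, and 604.8 and 338.4 CPM in old VAT. In each of these sub-clusters the young SAT values were above the old SAT values, with libraries under 20 nuclei left out. The Meg3 levels of Dpp4 progenitors in young SAT replicate 2 (1608 CPM) and in old VAT replicate 1 (1663 CPM) were about the same. Those in young SAT replicate 1 (2553 CPM) and old VAT replicate 2 (385.1 CPM) lay far apart.

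The difference between depots at 24 months was less even. The log2 fold change of Meg3 in FAPs, VAT over SAT, was 1.70 ± 0.61 (SE), from 538 ± 351 against 174 ± 33 CPM (SD, n = 2). It was 2.26 without VAT replicate 2 and 0.75 without VAT replicate 1. The 2 VAT libraries thus differed from each other by more than the lower of them differed from SAT, and the lower one is the library whose FAPs carried ovarian and mesothelial markers. The part of those markers in the result was not tested.

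Rian, the host of a long array of small nucleolar RNAs, lies 32076 bases downstream of Meg3 (chr12:109570242-109628150, plus strand) and is read from the same, maternal, copy. It followed the order of Meg3 at a lower count. FAPs had 117.0 and 143.2 CPM of Rian in young SAT, 46.38 and 21.50 CPM in old SAT, and 97.66 and 44.24 CPM in old VAT. The young SAT libraries lay above all others, while old SAT and old VAT overlapped, and old SAT rests on 4 and 9 UMIs. The log2 fold change of Rian with age in SAT was -2.17 ± 0.62 (SE, n = 2), or -1.49 without old SAT replicate 2, and that of VAT over SAT was 1.38 ± 0.61, or 1.85 without VAT replicate 2, 0.64 without VAT replicate 1 and 0.73 without old SAT replicate 2. In VAT replicate 1, the library with the most FAP nuclei that held a Rian UMI, Meg3 was present in 73.3% of the 60 thinned FAP nuclei with a Rian UMI and in 32.4% of the 621 without one. In young SAT, where Meg3 is in most FAPs, the shares lay closer, at 82.4% of 17 nuclei against 65.2% of 178 in replicate 1 and 60% of 15 against 57.1% of 168 in replicate 2. VAT replicate 2 had 37.5% of 8 against 13.8% of 318, and in old SAT the nuclei with a Rian UMI numbered only 2 and 5.

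Outside FAPs, Meg3 was high in some mesothelial nuclei, the lining cells of the visceral fat. A mesothelial cluster led by Il1rapl1 and Bicd1 held 1992 CPM of Meg3 in young SAT replicate 1 (20 nuclei), 293.8 CPM in old SAT replicate 2, and 966.3 and 514.0 CPM in old VAT. The larger mesothelial cluster, led by Upk1b, held 754.3 CPM of Meg3 in VAT replicate 1 but 33.66 CPM in the 1180 nuclei of VAT replicate 2, and 2 and 1 Meg3 UMIs in young SAT. Ovarian steroidogenic nuclei of VAT replicate 2 had 919.7 CPM, from 811 Meg3 UMIs in 432 nuclei. Smooth muscle or pericyte nuclei could be counted only in old SAT replicate 2, at 255.9 CPM in 38 nuclei.

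In adipocytes Meg3 was low in every library: 18.28 and 20.25 CPM in young SAT, 1.378 and 2.902 CPM in old SAT, and 33.95 and 23.04 CPM in old VAT. Its groups kept apart, with log2 fold changes of -2.80 ± 0.49 (SE) for age in SAT and 3.65 ± 0.48 for VAT over SAT (3.84 without VAT replicate 2). Without old SAT replicate 2 these were -3.51 and 4.38. Immune nuclei of the same libraries also had the lowest values in old SAT, with 11.86 and 17.29, 1.582 and 3.257, and 79.31 and 19.50 CPM, or 64.9% to 234% of the adipocyte level of the same library. The adipocyte level is thus within the range that Meg3 has in immune nuclei, and is not read as a difference in adipocytes.

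Summed over all nuclei, Meg3 was at 90.50 and 75.62 CPM in young SAT, 12.35 and 16.99 CPM in old SAT, and 156.8 and 154.2 CPM in old VAT. In such a sum, fewer cells of a type and less RNA per cell cannot be told apart: FAPs made up 4.24% and 3.17% of nuclei in young SAT, 2.33% and 4.97% in old SAT, and 15.4% and 6.43% in old VAT. The log2 fold change over all nuclei was -2.27 ± 0.36 (SE, n = 2) with age and 3.44 ± 0.38 between depots, or 3.64 without VAT replicate 2. The VAT libraries reached the same total from different nuclei. FAPs gave 934 of the 1680 Meg3 UMIs of replicate 1, whereas in replicate 2 ovarian steroidogenic nuclei gave 811, mesothelial nuclei 297 and FAPs 151 of 1573.

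**Figure D2:**
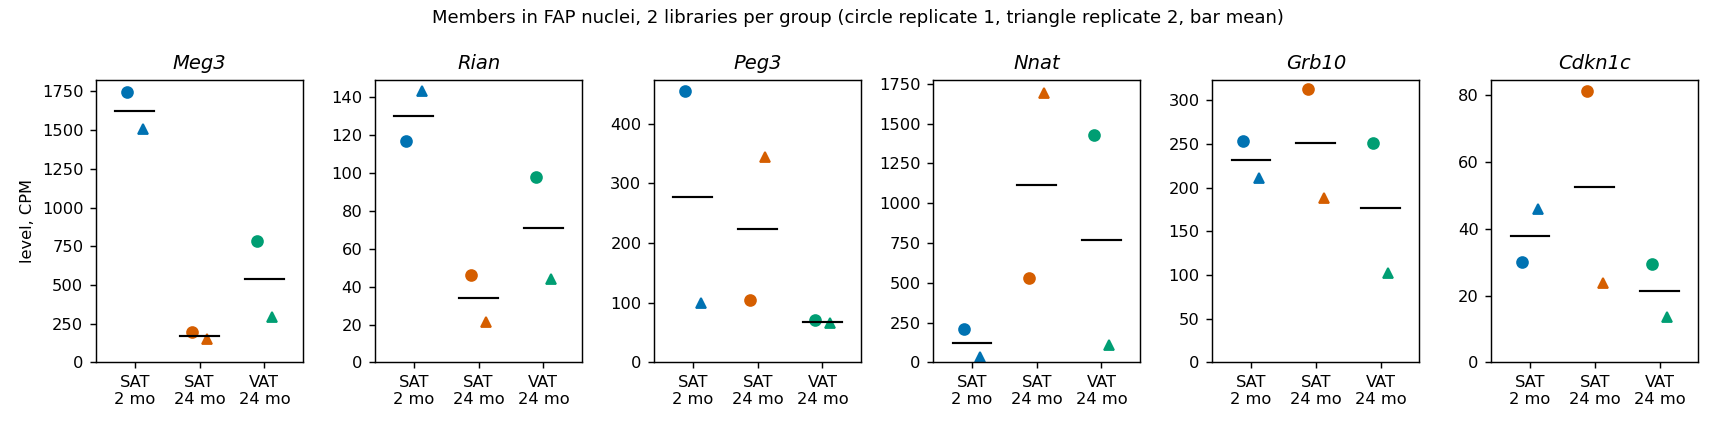
Level (CPM, linear axes from 0) of 6 members in FAP nuclei of the 6 libraries, with the mean of each group as a bar. Meg3 and Rian are highest in both young SAT libraries, Nnat is highest in old SAT replicate 2 (1693 CPM) and VAT replicate 1 (1429 CPM), and the libraries overlap between ages for Peg3, Grb10 and Cdkn1c.

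H19, a maternally expressed noncoding RNA that lies inside an antisense noncoding gene in the annotation (chr7:142129262-142133957, minus strand), was nearly absent as counted. The antisense gene, Gm33148, had 85 UMIs in the nuclei kept. Reads of H19 could have been left uncounted or counted there if strand was ignored in counting, which is not stated. All nuclei together held 15 and 7 H19 UMIs in young SAT, 3 and 3 in old SAT, and 5 and 5 in old VAT. FAPs gave 13 and 4 of those in young SAT, or 35.36 and 10.80 CPM, and 0, 1, 5 and 1 in the other 4 libraries. It passed the filter for testing in no class of the main fit, and at these counts no difference between old libraries was detectable. Some fits with 1 library left out did hold it. In FAPs with age its log2 fold change was then -4.01 without young SAT replicate 2. It was -3.1 and -6.5 without old SAT replicates 1 and 2.

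Igf2, the fetal growth factor that is H19's paternally expressed neighbour (chr7:142204503-142220694, minus strand), had 0 UMIs among 77185363 in all barcodes, which allows up to 3 by the limit used here for counts of 0. Its annotated gene lies entirely within Gm49394, a protein-coding gene model on the same strand with 12 UMIs in the nuclei kept, so that reads of Igf2 could have been left uncounted or counted there. The 0 is therefore that of the gene as counted and does not show that Igf2 is absent. Intervals and limits of this kind cover counting error only.

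Dlk1, the surface protein also known as preadipocyte factor, which holds back the making of fat cells (chr12:109418749-109429262, plus strand), had 219 UMIs in all barcodes. In FAPs it had 1 and 0 UMIs in young SAT, 0 and 1 in old SAT, and 12 and 3 in old VAT. The highest Dlk1 count in old SAT replicate 2 was in endothelial nuclei, with 17 UMIs or 10.91 CPM. Dlk1 thus did not follow Meg3, its neighbour 77614 bases downstream, in young SAT FAPs, where Meg3 had 642 and 558 UMIs. Dlk1 is read from the father's copy and Meg3 from the mother's.

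Cdkn1c encodes p57, an inhibitor of the kinases that drive the cell cycle (chr7:143012069-143014806, minus strand), and lies within a noncoding gene on its own strand, 4933417O13Rik. FAPs had 29.92 and 45.92 CPM of Cdkn1c in young SAT, 81.17 and 23.88 CPM in old SAT, and 29.47 and 13.46 CPM in old VAT, from 7 to 35 UMIs a library. The groups overlapped in both contrasts. Endothelial nuclei of old SAT replicate 2 gave 132 of its 215 UMIs in that library, at 84.73 CPM.

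Grb10, an adaptor protein that dampens insulin and insulin-like growth factor receptors (chr11:11880498-11988683, minus strand), was found in both adipocytes and FAPs. Adipocytes had 214.0 and 196.9 CPM in young SAT, 287.3 and 206.7 CPM in old SAT, and 290.2 and 218.9 CPM in old VAT. FAPs had 253.0 and 210.7, 313.1 and 188.7, and 251.7 and 101.9 CPM in the same order. In both classes old SAT overlapped with young SAT and with old VAT. In adipocytes both VAT libraries lay above both young SAT libraries, the nearest values being 218.9 and 214.0 CPM. These groups differ in both age and depot, and how many of all genes did so was not counted. The log2 fold changes with age in SAT were 0.42 ± 0.28 (SE, n = 2) in adipocytes and 0.09 ± 0.53 in FAPs, the latter between -0.24 and 0.43 when 1 library was left out. Immune nuclei had 3.956 to 22.80 CPM in 5 libraries and 108.8 CPM in VAT replicate 1.

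Peg3, a paternally expressed zinc finger gene (chr7:6706882-6733468, minus strand), was found in adipocytes, FAPs and skeletal muscle nuclei. Its level in adipocytes was 660.7 and 462.4 CPM in young SAT, 399.6 and 311.7 CPM in old SAT, and 224.7 and 265.0 CPM in old VAT. The 3 groups did not overlap and stood in that order. The steps were small against their errors. The log2 fold change was -0.50 ± 0.28 (SE) with age and -0.53 ± 0.29 from SAT to VAT, or -0.61 without VAT replicate 2. Both steps were negative in 15 of 15 alternatives, which use the same counts again. With 1 library left out the step with age ran from -0.71 to -0.17. After thinning, a Peg3 UMI was found in 37.8% and 26.8% of young SAT adipocytes, 25.1% and 23.2% of old SAT adipocytes and 15.7% and 20.6% of old VAT adipocytes, against 1.10% to 8.53% of immune nuclei, whose highest level was 92.91 CPM in VAT replicate 1. The few skeletal muscle nuclei had a Peg3 level of 493.5 CPM from 23 UMIs in old SAT replicate 2 and 373.7 CPM from 31 UMIs in VAT replicate 2, with counting intervals from 312.9 to 740.5 CPM and from 253.9 to 530.4 CPM. Only the first interval lies wholly above the adipocyte level of the same library.

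In FAPs Peg3 varied more between replicates than between ages. It was at 454.3 and 99.94 CPM in young SAT and at 104.4 and 343.9 CPM in old SAT, so that the log2 fold change of -0.18 ± 0.69 (SE, n = 2) was 1.24 without young SAT replicate 1 and -1.40 without old SAT replicate 2. Old VAT FAPs had 71.56 and 65.40 CPM, below both old SAT libraries (log2 fold change -1.76 ± 0.71, or -1.74 without VAT replicate 2). It was -2.32 without old SAT replicate 1 and -0.53 without old SAT replicate 2, so its size rests on the latter. Immune nuclei of VAT had 92.91 and 18.25 CPM of Peg3, so that the FAP level of VAT replicate 1 is not above theirs. The FAP sub-clusters differed: the one led by Frmd5 had 832.7 and 293.4 CPM of Peg3 in young SAT, whereas Dpp4 progenitors had 54.31 and 21.58 CPM. Meg3 was high in both.

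Mest, a paternally expressed gene of the hydrolase family that is known for its link to the growth of fat mass (chr6:30723546-30752058, plus strand), was found in old adipocytes and hardly in young ones. Adipocytes held 7 and 0 Mest UMIs in young SAT (3.763 and 0 CPM), 105 and 826 in old SAT (72.34 and 149.8 CPM), and 801 and 47 in old VAT (100.7 and 108.3 CPM). Every old library was above both young ones. The ratio of old to young SAT, from 931 against 7 UMIs, was 52.5 (95% counting interval 25.4 to 131), and the fitted log2 fold change was 5.63 ± 0.57 (SE, n = 2). Old SAT replicate 2 gave 826 of the 931 UMIs. The fitted value was 5.05 to 6.09 when 1 of the other 3 SAT libraries was left out and 11.5 without young SAT replicate 1, where the young library left had 0 UMIs and the size is no estimate. The depots overlapped, at a log2 fold change of -0.08 ± 0.37, or -0.10 without VAT replicate 2. After thinning 4.72% to 8.78% of old adipocytes held a Mest UMI, against 0.335% of young SAT adipocytes in replicate 1 and none of 508 in replicate 2, which allows a share of up to 0.591% (3 counts of 508). Immune nuclei had 1.582 to 13.03 CPM of Mest in 5 libraries, but 52.12 CPM in VAT replicate 1, where adipocytes had 100.7 CPM. In FAPs Mest had 1 to 42 UMIs a library and its groups overlapped. The 37.0% of Mest covered by Copg2, on the other strand, matters only if strand was ignored in counting, which the sources used here do not state.

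Nnat encodes neuronatin, a small membrane protein of the endoplasmic reticulum (chr2:157401879-157404573, plus strand), and lies whole within Blcap on the opposite strand. It had the most UMIs of any member, 133670 in all barcodes. Adipocytes had 3576 and 2885 CPM in young SAT, 6857 and 7083 CPM in old SAT, and 5752 and 4039 CPM in old VAT. Old SAT (6970 ± 160 CPM, SD, n = 2) was 2.16-fold above young SAT (3230 ± 489 CPM), a log2 fold change of 1.27 ± 0.34 (SE), with old VAT between them. Between depots it was -0.48 ± 0.33, or -0.22 without VAT replicate 2 and -0.84 without replicate 1. After thinning, 55.1% and 48.2% of young SAT adipocytes held a Nnat UMI, against 86.1% and 87.8% in old SAT and 83.3% and 65.0% in old VAT. Blcap, one of the imprinted genes tested below, was not called in adipocytes.

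**Figure D3:**
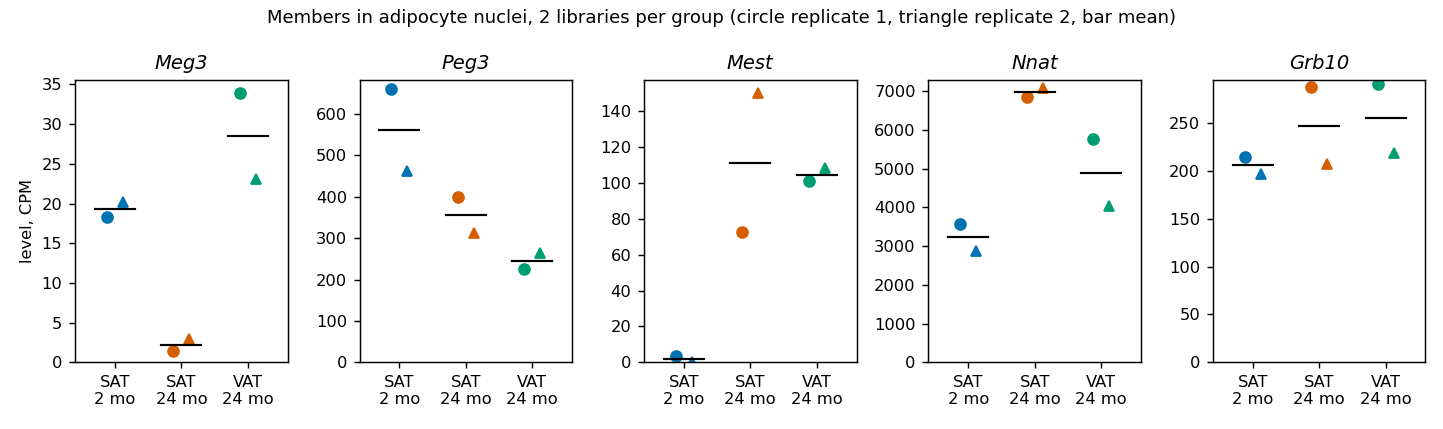
Level (CPM, linear axes from 0) of 5 members in adipocyte nuclei of the 6 libraries, with the mean of each group as a bar. Mest is at 3.76 and 0 CPM in young SAT and at 72.3 CPM or more in all 4 old libraries, Nnat is higher in both old SAT libraries than in both young ones, and Peg3 steps down over the 3 groups.

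The level of Nnat in immune nuclei had the same order over the 6 libraries as the adipocytes' share of nuclei. Immune nuclei had 66.86 and 50.88 CPM of Nnat in young SAT, 96.52 and 968.6 CPM in old SAT, and 1595 and 37.75 CPM in old VAT, where adipocytes made up 19.5% and 8.80%, 27.2% and 45.2%, and 64.6% and 3.16% of nuclei. The immune level was 0.935% to 27.7% of the adipocyte level of the same library. In FAPs Nnat was at 212.2 and 35.12 CPM in young SAT, 533.4 and 1693 CPM in old SAT, and 1429 and 107.7 CPM in old VAT, and the summed level of the 9 adipocyte markers in FAPs had the same order: 856.8 and 440.3, 1206 and 3695, and 3446 and 482.8 CPM, with no marker at 0. One FAP sub-cluster, led by Nnat and Cidec, held 5988 CPM of Nnat in old SAT replicate 2 and 5029 CPM in VAT replicate 1. Without that sub-cluster and another led by T cell genes, FAPs had 164.6 and 35.09, 104.0 and 499.7, and 389.9 and 43.98 CPM of Nnat, and the log2 fold change with age went from 3.22 ± 1.2 (SE, n = 2) to 1.71. With those sub-clusters kept it was 2.11 without old SAT replicate 2 and 5.00 without young SAT replicate 1. These FAP levels are below those of immune nuclei in 3 of the 6 libraries and are not read as a difference in FAPs. Meg3 without those sub-clusters was at 1875 and 1567, 221.0 and 181.2, and 962.0 and 289.0 CPM, in the same order as before.

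**Figure D4:**
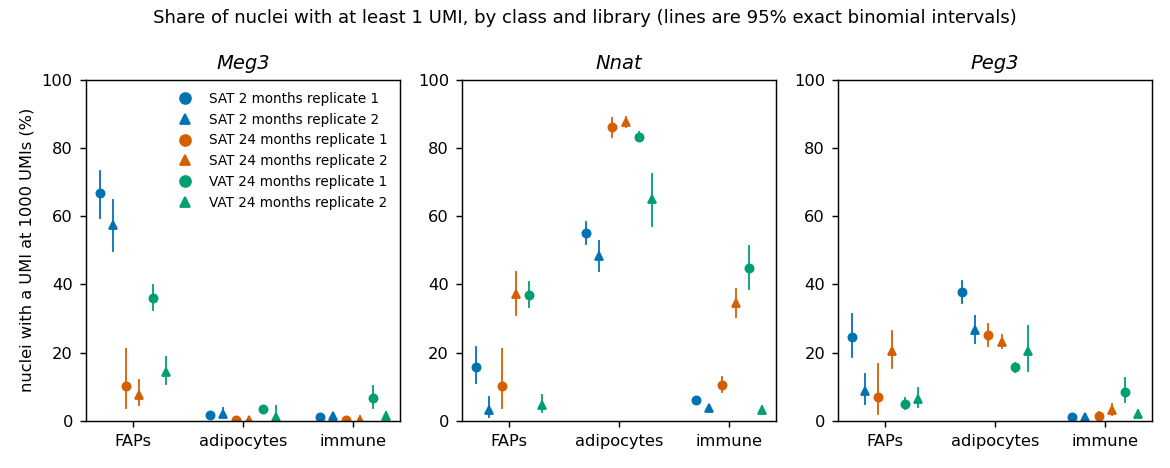
Share of nuclei (%) with at least 1 UMI of Meg3, Nnat or Peg3 after each nucleus was thinned to 1000 UMIs, by class and library, with 95% exact binomial intervals. Meg3 separates young SAT FAPs (66.7% and 57.4%) from the rest, Nnat is found in 48.2% to 87.8% of adipocytes but also in up to 45.0% of immune nuclei, and Peg3 is found in 15.7% to 37.8% of adipocytes and 1.10% to 8.53% of immune nuclei.

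To place these values, all genes were tested with edgeR's quasi-likelihood test (Benjamini-Hochberg adjusted p under 0.05). In FAPs no gene of 8592 was called with age in SAT (0%) or between depots (0%), while 959 and 515 had an unadjusted p under 0.05 and DESeq2 called 37 and 20. With age in FAPs the test found only 14.3% of simulated log2 fold changes of 2, so a lack of calls does not show that little changed. Of the 7 members tested in FAPs, 2 lay below in both old SAT libraries and 1 above. Of all genes tested, 26.3% and 18.6% did so (44.9% either way). Between depots 1 of 7 lay above and 1 below, where 18.7% and 15.6% of all genes did so (34.3% either way).

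In adipocytes 1836 of 12945 genes were called with age in SAT (14.2%), 856 higher (6.61%) and 980 lower (7.57%), and 17 between depots (0.131%), 7 higher (0.0541%) and 10 lower (0.0772%) in VAT. Library-size scaling turned the calls with age into 641 higher and 1336 lower. Members past that limit numbered 3 of the 5 tested with age, namely Mest and Nnat higher and Meg3 lower, and 1 of 5, Meg3, between depots. The members were chosen on these contrasts and nothing is read from those counts. Without young SAT replicate 2 the calls with age fell to 459, without replicate 1 to 694, and without old SAT replicate 2 to 1210. In adipocytes 2 members lay above and 2 below in both old SAT libraries, where 21.8% and 39% of all genes did so (60.8% either way), and between depots 1 lay above and 2 below, where 15.9% and 19.1% did so (35.1% either way). Summed over all nuclei, no gene of 21729 was called with age (0%) by edgeR, with 1794 at an unadjusted p under 0.05 and 292 by DESeq2, and 3 were called between depots (0.0138%), none of them without either old SAT library. Over all nuclei 4 of the 8 members tested lay above and 2 below with age, where 19.5% and 34.1% of all genes did so (53.7% either way), and 2 lay above and 0 below between depots, where 10.6% and 16.1% did so (26.7% either way).

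Other imprinted genes, 55 of which are listed in the files and 36 of which could be tested in adipocytes, gave 6 that rose and 2 that fell with age in SAT. Of all genes tested 14.2% were called in this contrast. The list's median log2 fold change was 0.19, beside 0.00 over all genes tested. Nap1l5, a gene of the nucleosome assembly protein family, rose from 3.06 ± 2.04 to 48.0 ± 16.2 CPM (SD, n = 2), a log2 fold change of 4.34 ± 0.53 (SE, edgeR adjusted p = 0.000439). Plagl1, a zinc finger regulator of other imprinted genes, rose from 42.2 ± 24.7 to 175 ± 11.5 CPM (log2 fold change 2.14 ± 0.35, edgeR adjusted p = 0.00243). Both were called in 15 of 15 alternatives, but without young SAT replicate 1 and without replicate 2 the log2 fold change was 3.62 and 5.05 for Nap1l5 and 3.02 and 1.72 for Plagl1. Without either young SAT library the list's calls dropped from 8 to 3.

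Peg10, which derives from a retrotransposon, and its neighbour Sgce, a sarcoglycan, rose by log2 fold changes of 2.31 ± 0.59 and 1.46 ± 0.29 (SE, edgeR adjusted p = 0.0239 and 0.00673). Kcnq1ot1, the noncoding RNA that silences the cluster holding Cdkn1c on the paternal copy, rose from 240 ± 1.63 to 513 ± 86.3 CPM (log2 fold change 1.26 ± 0.27, edgeR adjusted p = 0.0101). Copg2, a coat protein gene that overlaps Mest on the other strand, rose by 0.99 ± 0.26 (edgeR adjusted p = 0.026). The calls of Peg10, Sgce, Kcnq1ot1 and Copg2 were lost without young SAT replicate 1 (edgeR adjusted p = 0.124, 0.0618, 0.109 and 0.161) and without replicate 2 (0.157, 0.109, 0.142 and 0.21), and that of Peg10 also without old SAT replicate 2 (0.102), with DESeq2 (DESeq2 adjusted p = 0.05065) and under the mitochondrial limit of 5% (0.07388). In VAT at 24 months none of the 36 was called against SAT by edgeR, 6 having an unadjusted p under 0.05, and DESeq2 called 1.

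Tspan32 and Ano1 fell, by log2 fold changes of 2.93 ± 0.61 and 2.66 ± 0.49 (SE, edgeR adjusted p = 0.00865 and 0.00469). Tspan32 encodes a tetraspanin of blood cells and was higher in immune nuclei, at 78.18 to 290.3 CPM, than in adipocytes in every library, and its call was lost without young SAT replicate 2 (edgeR adjusted p = 0.155). Its log2 fold change ran from -3.73 without old SAT replicate 1 to -1.98 without old SAT replicate 2. The 10 immune markers moved with it in adipocytes, summing to 489.8 and 888.8 CPM in young SAT and 171.6 and 116.2 CPM in old SAT, with none at 0. Their part in the result was not tested. Ano1, a chloride channel gene, was at 56.45 and 34.88 CPM in young adipocytes and at 4.343 to 15.90 CPM in immune nuclei of SAT, and its call was lost without young SAT replicate 1 (edgeR adjusted p = 0.0867).

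**Figure D5:**
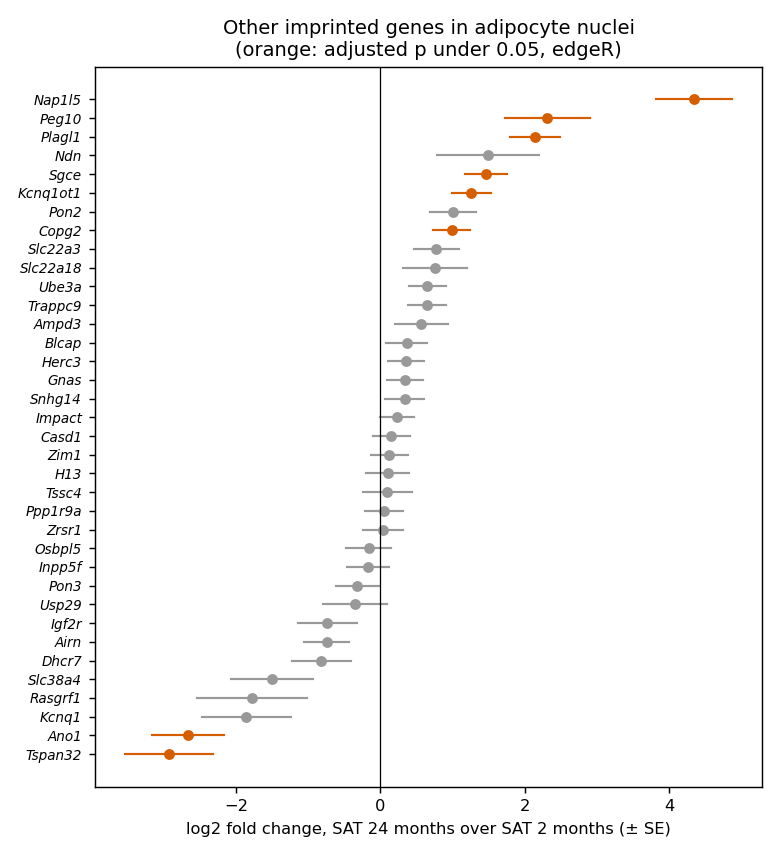
Log2 fold change (± SE) of the 36 other imprinted genes tested in adipocyte nuclei, SAT at 24 months over SAT at 2 months, with genes at an edgeR adjusted p under 0.05 in orange. Nap1l5 (4.34) is at the top and Tspan32 (-2.93) and Ano1 (-2.66) at the bottom, with 28 genes not called.

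Among 32 genes for the upkeep of imprints and for the partners of the members (insulin-like growth factor signalling, kinase inhibitors, Notch receptors), 28 were tested in adipocytes, 3 rose and 1 fell with age in SAT. These 4 calls of 28 are about the share called among all genes (14.2%), and the median log2 fold change was -0.13 beside 0.00 over all genes. Grb14, a relative of Grb10 and like it an adaptor at the insulin receptor, rose from 8.602 and 7.876 CPM in young SAT to 115.1 and 118.1 CPM in old SAT, a log2 fold change of 3.96 ± 0.31 (SE, edgeR adjusted p = 4.11e-05) that was called in 15 of 15 alternatives. Old VAT adipocytes had 22.51 and 29.95 CPM of Grb14, and it was the list's only gene called between depots (log2 fold change -2.22 ± 0.28, edgeR adjusted p = 0.0178, and -2.31 without VAT replicate 2), a call that was lost without VAT replicate 1 (edgeR adjusted p = 0.11). Grb10 in adipocytes overlapped between the groups of each of these contrasts, as given above.

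Cdkn1a, the kinase inhibitor p21 and a relative of Cdkn1c, rose by 2.11 ± 0.63 (SE, edgeR adjusted p = 0.045), from 9.139 and 12.38 CPM to 13.09 and 64.56 CPM, so that most of the step is old SAT replicate 2. Igfbp5, a binding protein of insulin-like growth factors, rose by 2.08 ± 0.49 (edgeR adjusted p = 0.0165), again with the higher value, 202.7 CPM, in that library. The summed level of the 9 FAP markers in adipocytes was also highest there, 4837 CPM against 2245, 1687 and 2096 CPM in the other SAT libraries, with none at 0, and Igfbp5 is itself among the leading genes of the Dpp4 progenitors. The part of the FAP markers in the Cdkn1a and Igfbp5 values was not tested. Dnmt1, the enzyme that copies DNA methylation at cell division, fell by 1.22 ± 0.37 on the log2 scale (edgeR adjusted p = 0.0449), from 34.94 and 58.50 CPM to 19.29 and 16.32 CPM. Dnmt1 was at 109.7 to 184.7 CPM in SAT immune nuclei, above adipocytes, and the immune markers in adipocytes given above moved with it. Their part in the result was not tested. The calls of Cdkn1a, Igfbp5 and Dnmt1 were lost without either young SAT library (edgeR adjusted p = 0.0626 to 0.399) and without old SAT replicate 2 (0.68, 0.124 and 0.213), and that of Dnmt1 also without old SAT replicate 1 (0.0648), without the filter on low counts (0.06725) and with DESeq2 (DESeq2 adjusted p = 0.1234). Cdkn1a was not called with library-size scaling (edgeR adjusted p = 0.06697). Without old SAT replicate 2 the log2 fold change of Cdkn1a was 0.55 and that of Igfbp5 1.01. In FAPs and over all nuclei none of either list was called in either contrast by edgeR, with 8 of 32 other imprinted genes at an unadjusted p under 0.05 in FAPs with age and 8 between depots, and 1 of 23 control and partner genes each. Over all nuclei those counts were 9 and 6 of 46 and 2 and 4 of 32, and DESeq2 called 1 and 2 of the first list and 1 and 1 of the second.

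The genes whose levels ran most like 3 of the members were sought over 49 sums of a named class and library, among 12542 genes with a mean of at least 10 CPM, by Pearson's r of log2(CPM + 10). These sums share libraries and classes, and no p-value is given. Meg3 ran most like Numbl (r = 0.826), a relative of the Notch inhibitor Numb, Antxr1 (0.782), a collagen-binding receptor, and Fbln1 (0.774), an extracellular matrix protein. Peg3 ran most like Vegfa (0.759), Hk2 (0.755) and Aox1 (0.751), the genes of a vessel growth factor, a glucose-trapping kinase and an aldehyde oxidase. H19 ran most like the muscle genes Mylk4 (0.714), Ppp1r3a (0.690) and Pvalb (0.665), but its highest value, 42.92 CPM in skeletal muscle nuclei of old SAT replicate 2, is 2 UMIs.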

How the data were processed

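The authors captured nuclei with a Singleron single-nucleus kit and aligned the reads with Celescope to GRCm39. Celescope's version, the annotation and the use of strand are not given in the sources used here. What they deposited are raw UMI counts for each gene in each barcode, with no normalization. Nuclei with over 1000 UMIs, over 500 genes and under 15% mitochondrial UMIs were kept. The 1000 most variable genes, members left out, gave 30 principal components. Harmony, rewritten for this work, removed library differences, and nuclei were clustered (Leiden, resolution 2, and 1 for FAPs, 20 neighbours) and named from marker lists, with at least 3 markers over 2-fold. Such names are candidate identities ("-like"). Scrublet marked 0.0519% to 0.562% of a library as doublets. This was taken as too few, though whether Scrublet worked was not tested. Removing the 5% of nuclei with the highest score was therefore added as an alternative after seeing the data.

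UMIs were summed per library and class, leaving out a class in a library with under 20 nuclei. edgeR 4.0.16 (R 4.3.3, TMM, filterByExpr, quasi-likelihood) was fitted to the 3 groups together on all genes, and DESeq2 1.42.0 was an alternative. Python 3.11.15, scanpy 1.11.5, leidenalg 0.10.2 and scipy 1.17.1 were used. CPM carry no length correction. Positions are from GENCODE M39, which held all 10 members. Clustering, likeness and the fits were tested on simulated data. With age in SAT, the fit found 71.4% and 91.8% of simulated log2 fold changes of 2 and 3 in adipocytes. In FAPs it found 14.3% and 61.3%. The members, both gene lists and the rules for naming genes were chosen with earlier results of these data known. The text names all members, the called genes of each list (up to 6 in a direction), and the 3 genes most like Meg3, Peg3 and H19. The labels do not tie libraries to mice, so p-values measure only the spread between libraries, which may be technical. Alternatives were other scaling, no filter on low counts, other samples in the fit, a replicate block, 1 library left out, doublets removed, a mitochondrial limit of 5% and other clusterings. Of 56 other imprinted genes, Nespas had no row.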

Additional observations from a re-analysis of the deposited data

How the results depend on the processing

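Counts of called genes changed with the settings given here. Without the filter on low counts edgeR called 953 genes with age and 1034 between depots over all nuclei, 154 between depots in adipocytes, and 216 and 181 in FAPs. Of the other imprinted genes it then called 8 and 2 over all nuclei, 1 between depots in adipocytes, and 1 and 3 in FAPs, and of the control and partner genes 2 and 3 over all nuclei and 4 between depots in adipocytes. DESeq2 called 292 and 522 genes over all nuclei, 33 between depots in adipocytes, and 37 and 20 in FAPs, with 1 and 2 other imprinted genes and 1 and 1 control and partner genes over all nuclei, and 1 other imprinted gene between depots in adipocytes. With only the 4 libraries of a contrast, the calls were 0 between depots over all nuclei, 7 in adipocytes, 66 with age in FAPs, and 7 control and partner genes with age in adipocytes. Clustering without Harmony left VAT replicate 2 with 33 FAP nuclei instead of 326. It gave 110 and 12 calls in FAPs and 1 other imprinted gene between depots in adipocytes. A mitochondrial share under 5% gave 29 calls and 1 other imprinted gene there. The cause of these moves was not tested.

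Leaving out 1 library at a time, calls between depots ran from 0 to 952 over all nuclei (952 without VAT replicate 1 and 374 without VAT replicate 2), from 23 to 110 in adipocytes (110 and 36 without old SAT replicates 1 and 2, 56 without VAT replicate 2) and from 0 to 510 in FAPs (510 without VAT replicate 1). Calls with age in adipocytes ran from 459 to 1740. Other imprinted genes called ran from 0 to 3 between depots over all nuclei and in FAPs, from 3 to 12 with age and from 0 to 1 between depots in adipocytes. Control and partner genes ran from 0 to 2 over all nuclei, from 0 to 1 in FAPs and from 0 to 4 in adipocytes between depots, and from 1 to 4 with age in adipocytes. Where a group was left with 1 library, that library is assumed to vary like the others. Library-size scaling moved the median of all genes by age from 0.02 to -0.17 over all nuclei and from 0.00 to -0.17 in adipocytes, where it turned 856 higher and 980 lower calls into 641 and 1336.

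Replicate numbers did not pair the samples: same-numbered deviations correlated at -0.266 and -0.476 over all nuclei, -0.0903 and 0.0898 in adipocytes, and -0.0293 and -0.0749 in FAPs. With the replicate block, calls were 0 between depots over all nuclei and 26 in adipocytes, with 1 other imprinted gene, and the block moved no other count of calls by over 1.5 times. The block with the numbers of old SAT crossed, chosen after seeing the data, gave 0 and 3 calls over all nuclei. Of the log2 fold changes of members, 539 of the alternative values moved by less than the spread between replicates and 54 by more. Meg3 kept its direction in every alternative of each class and contrast. The alternatives use the same counts again, so a kept direction is not separate evidence. Depth limits H19, with 3 to 15 UMIs a library, and Dlk1 in FAPs, with 0 to 12. For Cdkn1c the old SAT libraries, at 3.04 and 18.73 CPM over all nuclei, differed beyond their counting intervals.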

Other observations

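Endothelial nuclei, the lining of vessels, also held members. Grb10, the insulin receptor adaptor, was at 38.88 and 51.87 CPM in endothelial nuclei of young SAT, 164.3 and 97.56 CPM in old SAT, and 148.0 and 141.6 CPM in old VAT, with the old libraries above both young ones, although the young values rest on 4 UMIs each. Immune nuclei had less Grb10 in each of the 6 libraries. Peg3 was at 58.31 and 155.6, 59.32 and 148.3, and 88.20 and 20.24 CPM, with the ages overlapping, and was no higher than in immune nuclei in VAT replicate 1 (92.91 CPM) and close to them in VAT replicate 2 (18.25 CPM). Mest in endothelial nuclei was at 118.1 CPM in old SAT replicate 2, from 184 UMIs, against 22.82 CPM in old SAT replicate 1, so libraries of the same group lay far apart. Nnat, a gene highest in adipocytes, had means in endothelial nuclei of 312.7 ± 148.8 CPM in young SAT (SD, n = 2). Its means there were 1602 ± 1124 CPM in old SAT and 1067 ± 1259 CPM in old VAT. These values, and the part of adipocyte RNA in those of Grb10 and Mest, were not tested.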
